A study of Mus musculus with 6 samples.

Results

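The lineage transcription factors of dendritic cells (DCs) and macrophages were followed through 3 libraries of cultured DCs and 3 libraries of wound cells. The list held 9 genes, Irf4, Irf8, Batf3, Zbtb46, Id2, Spi1, Klf4, Relb and Nr4a3. It was set by name, and all 9 were found in every library among 31063 genes of the DC files and 31065 features of the wound files. Each library was 1 sample of single-cell RNA, so no difference between conditions has a replicate check and no test was made. Untreated DCs were grown from bone marrow of C57BL/6 mice with GM-CSF, which gives a mixed culture and not a pure DC population. VD3 DCs were the same culture given vitamin D3 at 1e-06 M for 24 h from day 7. Ndrg2-KO DCs had received Cas9 ribonucleoprotein with guides against Ndrg2 by nucleofection, whereas the untreated DCs had not been nucleofected, so guide, nuclease and nucleofection cannot be told apart in that comparison. The wound libraries came from excisional wounds of 6 week old mice on day 10 under hydrogels that carried control DCs, Ndrg2-KO DCs or no cells (blank). The labels call the control DCs untreated, and the methods describe non-targeting guides for them. The deposited design text speaks of GFP-labelled circulating cells of parabiotic mice, but eGFP and tdTomato had 0 UMIs in the kept cells of the 3 wound libraries. Host cells and seeded DCs could therefore not be separated by a reporter.

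These factors divide the labour of building the mononuclear phagocytes. Spi1 (PU.1) opens the myeloid programme, Irf8 with Batf3 drives the cDC1 lineage, and Irf4 with Klf4 serves the cDC2 lineage. Zbtb46 marks committed classical DCs, Id2 restrains E proteins, Relb is the partner of the alternative NF-kB pathway in DC maturation, and Nr4a3 is an orphan nuclear receptor linked to the migration of Ccr7-positive DCs. Klf4 is in addition a monocyte and macrophage factor, and Irf8 is needed for monocytes.

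The promoters of Nr4a3, Irf8 and Klf4 are shown because Nr4a3 differed most between mature and immature cells, and Irf8 and Klf4 differed most after VD3. They are the stretches of the RefSeq windows (GRCm38.p6) that lie before the annotated gene start, written 5′ to 3′ on the strand of the gene. Capitals mark TGACG, the core of the cAMP response element, on either strand in Nr4a3 and Klf4, and TTCNNNGAA, the pattern bound by STAT proteins, in Irf8. The Nr4a3 stretch is chr4:48045055-48045152 on the plus strand, the Irf8 stretch chr8:120736108-120736357 on the plus strand and the Klf4 stretch chr4:55532476-55532725 on the minus strand.
Nr4a3: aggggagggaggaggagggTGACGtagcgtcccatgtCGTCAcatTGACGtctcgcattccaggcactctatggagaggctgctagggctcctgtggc
Irf8: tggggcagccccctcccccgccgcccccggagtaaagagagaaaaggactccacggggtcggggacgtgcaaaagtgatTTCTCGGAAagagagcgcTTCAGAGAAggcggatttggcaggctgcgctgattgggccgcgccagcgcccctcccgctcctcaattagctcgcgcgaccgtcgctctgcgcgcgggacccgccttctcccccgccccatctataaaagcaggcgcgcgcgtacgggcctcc
Klf4: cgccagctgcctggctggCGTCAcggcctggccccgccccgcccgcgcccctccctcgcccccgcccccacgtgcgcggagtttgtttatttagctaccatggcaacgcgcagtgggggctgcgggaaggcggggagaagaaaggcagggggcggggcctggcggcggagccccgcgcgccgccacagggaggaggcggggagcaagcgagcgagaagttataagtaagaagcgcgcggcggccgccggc

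The 98 bases of Nr4a3 held TGACG 3 times, and 0.0274% of 32851 RefSeq windows cut to the same stretch held it as often, against 5.22% with at least 1. The 250 bases of Irf8 held TTCNNNGAA 2 times, as did 0.317% of the windows, against 7.02% with at least 1. Klf4 held TGACG 1 time, as did 17.8% of the windows. Irf4 had none of the motifs in its 243 bases. TGANTCA (AP-1), GGAAGT (PU.1), the IRF element and the vitamin D receptor repeat were also sought on both strands and were in none of these 4 stretches. At 250 bases 6.75%, 19.7%, 2.98% and 0.00609% of the windows held them. The exact vitamin D receptor repeat is so rare that its absence tells nothing about these genes. The motifs found are matches of letters, not bound sites. RefSeq windows were at hand for 7 of the 9 genes, and for Batf3, Zbtb46 and Id2 they began inside the annotated gene. Spi1 and Relb had no window. The annotated genes lie at chr13:30749226-30766976 (Irf4, plus strand), chr8:120736358-120756694 (Irf8, plus), chr1:191097847-191108945 (Batf3, plus), chr2:181387762-181459426 (Zbtb46, minus), chr12:25093799-25097140 (Id2, minus), chr2:91082390-91115756 (Spi1, plus), chr4:55527143-55532466 (Klf4, minus), chr7:19606217-19629438 (Relb, minus) and chr4:48045153-48086447 (Nr4a3, plus) of GRCm38. In the annotation Gm20388 overlaps Irf8 on the same strand, so reads in the shared stretch could have been left uncounted.

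A cell was kept with 300 or more genes, fewer than 100000 UMIs and a mitochondrial share below 10%. This left 7257 untreated, 8825 VD3 and 7969 Ndrg2-KO DCs with a median of 12089 to 16316 UMIs, and 1948 to 5681 cells per wound library with a median of 4415 to 10795 UMIs. Levels are UMIs of the gene per 1000000 UMIs summed over the cells named (CPM), with exact 95% intervals that cover counting error only. For sums over whole libraries the half-width of these intervals was at most 5.84% of the value in the DC libraries and at most 19.7% in the wound libraries. For the mature and the immature cells of the DC cultures it was at most 12.5%, and smaller groups of cells had wider intervals. Ndrg2 itself was at 4.62 CPM in untreated, 1.42 CPM in VD3 and 0.884 CPM in Ndrg2-KO DCs, a 3′ count that does not show whether a guide cut. Pairs of libraries shared 1 to 19 cell barcodes. Median mitochondrial shares were 5.30% in untreated, 5.60% in VD3 and 6.60% in Ndrg2-KO DCs, so a limit of 5% would have kept 1721 of the Ndrg2-KO cells.

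Summed over whole DC libraries, VD3 DCs stood apart in Irf8 and Klf4, and Ndrg2-KO DCs in Zbtb46 and Relb. Irf8 was at 133 CPM in untreated, 307 in VD3 and 171 in Ndrg2-KO DCs. Irf4, its relative in the cDC2 lineage, was at 60.1, 55.6 and 60.2 CPM in the same order and was the most even of the list between untreated and Ndrg2-KO DCs. Batf3, the AP-1 factor that works with Irf8, was at 142, 150 and 91.4 CPM. So the Irf8 level lay above the untreated one in both other cultures, for Ndrg2-KO DCs not under every setting (log2 ratio -0.11 to 0.70), while Batf3 was lowest in Ndrg2-KO DCs. Zbtb46 was at 18.8 CPM in untreated, 25.5 in VD3 and 7.96 in Ndrg2-KO DCs. Id2 was at 777, 581 and 550 CPM. Spi1 was at 362, 331 and 294 CPM. Zbtb46 and Spi1 were lowest in Ndrg2-KO DCs, while for Id2 the order of Ndrg2-KO and VD3 DCs turned with the setting (log2 ratio -0.27 to 0.36). Klf4 was at 62.4 CPM in untreated, 23.2 in VD3 and 44.5 in Ndrg2-KO DCs. Relb was at 105, 126 and 52.0 CPM. Nr4a3 was at 94.9, 68.7 and 101 CPM. Klf4 and Nr4a3 were thus lowest in VD3 DCs and Relb in Ndrg2-KO DCs.

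**Figure D1:**
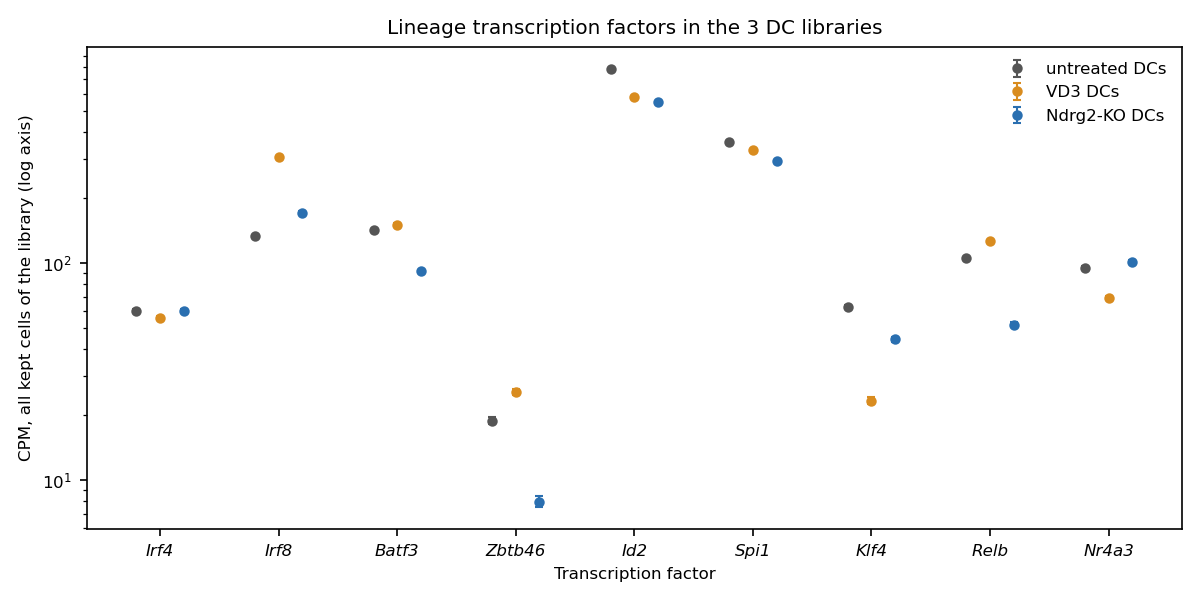
Levels of the 9 transcription factors in untreated, VD3 and Ndrg2-KO DCs, as CPM summed over all kept cells (log axis), 1 point per library with its exact 95% Poisson interval. Irf8 is highest in VD3 DCs at 307 CPM, and Zbtb46 is lowest in Ndrg2-KO DCs at 7.96 CPM.

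Members at least 2-fold apart were counted beside the share of all genes past that limit. Between VD3 and untreated DCs, 2 of 9 members were at least 2-fold apart, against 9.08% of the 11493 genes with at least 200 UMIs in the 2 libraries together. They were Irf8, with a log2 ratio of 1.21 (95% interval 1.19 to 1.24), and Klf4, with -1.43 (-1.49 to -1.37). Over 8 other settings Irf8 ran from 0.92 to 1.31, below the limit with cells under 5% mitochondrial UMIs and with means over cells, and Klf4 from -2.36 to -1.28. The median of the members was -0.11 and that of all genes -0.08. Between Ndrg2-KO and untreated DCs, 2 of 9 were at least 2-fold apart, against 15.3% of genes. Zbtb46 had a log2 ratio of -1.24 (-1.34 to -1.14), and Relb lay at the limit with -1.01 (-1.05 to -0.97). Over the 8 other settings Zbtb46 ran from -1.65 to -0.81 and Relb from -1.22 to -0.55, and neither was past the limit with means over cells or with the state shares of the untreated library. The median was -0.49 for the members and -0.06 for all genes. Both comparisons use the same untreated library. Between Ndrg2-KO and VD3 DCs, 2 of 9 were past the limit, against 18.4% of genes, again Zbtb46 with -1.68 (-1.78 to -1.58) and Relb with -1.27 (-1.31 to -1.23), while Klf4 had 0.94 (0.87 to 1.01). Over the 8 other settings these ran from -2.01 to -0.93 for Zbtb46, from -1.47 to -0.52 for Relb and from 0.70 to 2.25 for Klf4. The median of the members was -0.17, beside 0.00 for all genes.

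In a library sum, fewer cells of a kind and less RNA per cell cannot be told apart, so the same factors were taken within cell states. The 3 cultures were clustered together without the 9 factors, and clusters were named from marker lists. Mature DCs carried Ccr7, Fscn1, Ccl22 and Il4i1. They numbered 2642 in untreated, 3315 in VD3 and 1997 in Ndrg2-KO DCs. Immature or macrophage cells carried Csf1r, Lyz2 and Fn1 or C1q genes and numbered 1134, 1447 and 4014. The 2 lists of this state were joined after the clusters had been seen. Of the 15 clusters, 10 were over 90% from 1 library, so the mature and immature cells of each library lay mostly in a cluster of their own, while untreated and VD3 neutrophils shared 1 cluster and so did part of their cycling cells. Mature cells of untreated DCs sat mostly in the cluster led by Fscn1 and Il4i1, those of VD3 DCs in the one led by Cd83 and Cacnb3 and those of Ndrg2-KO DCs in the one led by Clu and Il4i1. The immature cells were led by Cd36 and Igf1 in untreated DCs, by Cxcl3 and Mmp12 in VD3 DCs and by Sgk1 and Rhob in Ndrg2-KO DCs. The 8 mature DC markers summed to 17051 CPM in mature and 690 CPM in immature cells of untreated DCs, and the 7 markers of the Csf1r list to 165 and 20836 CPM. In mature VD3 and Ndrg2-KO cells the mature DC markers summed to 12034.5 and 24378 CPM. In mature Ndrg2-KO cells the Csf1r list summed to 1161 CPM, above the 165 and 82.4 CPM of the other 2 cultures. The part of both lists in the values below was not tested. Clusters were built from the same cells, so differences between states are descriptions.

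Mature DCs stood apart from immature or macrophage cells in most of the list, with the same direction in the 3 cultures for 8 of the 9 genes. Relative to immature cells, 5 of 9 members were at least 2-fold higher in mature untreated DCs, against 12.1% of genes, and 2 of 9 were at least 2-fold lower, against 26.9%. In VD3 DCs 6 of 9 were higher, against 8.03%, and 2 lower, against 19.3%. In Ndrg2-KO DCs 6 of 9 were higher, against 9.72%, and 1 lower, against 16.9%. The median log2 ratio was 1.53, 1.78 and 1.47 for the members and -0.38, -0.21 and -0.10 for all genes in untreated, VD3 and Ndrg2-KO DCs.

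Nr4a3 was the factor with the widest gap. It was at 238 CPM in mature and 21.7 CPM in immature untreated cells, a log2 ratio of 3.45 (3.33 to 3.58). In Ndrg2-KO DCs it was at 404 and 42.4 CPM, a log2 ratio of 3.25 (3.20 to 3.31), and in VD3 DCs at 132 and 31.4 CPM, a ratio of 2.07 (1.97 to 2.18). These ratios depended on the clustering, and under the 4 others ran from 2.99 to 5.59 in untreated and from 3.23 to 4.69 in Ndrg2-KO DCs. The VD3 value moved most. Its 1447 immature cells became 1092 to 1177 under the 4 other clusterings tried, and the log2 ratio of Nr4a3 then ran from 4.62 to 5.38. At the higher resolution a cluster led by Mpeg1 and Cxcl2, unnamed by the marker lists, held 313 VD3 cells with Nr4a3 at 86.9 CPM, beside 4.03 CPM in the VD3 cells named immature there.

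Relb, Irf8, Batf3, Zbtb46 and Id2 were also on the mature side. Relb was at 239 CPM in mature and 38.0 CPM in immature untreated cells, at 225 and 57.0 CPM in VD3 cells and at 181 and 25.2 CPM in Ndrg2-KO cells, with log2 ratios of 2.65, 1.98 and 2.85. Under the 4 other clusterings the VD3 ratio was larger for this whole side, at 2.86 to 2.94 for Relb, 1.82 to 1.88 for Irf8, 2.75 to 2.81 for Batf3, 2.89 to 3.20 for Zbtb46 and 2.95 to 3.25 for Id2. Irf8 was at 245 and 53.0 CPM in untreated, 500 and 206 CPM in VD3 and 410 and 127 CPM in Ndrg2-KO cells, with log2 ratios of 2.21, 1.28 and 1.69. Batf3 was at 299 and 73.8 CPM in untreated, 263 and 73.8 CPM in VD3 and 154 and 78.0 CPM in Ndrg2-KO cells. The immature Batf3 levels thus lay within 5 CPM of each other, but at the higher resolution they were 70.5 CPM in untreated, 37.8 CPM in VD3 and 74.3 CPM in Ndrg2-KO cells. Zbtb46 was at 37.6 and 13.0 CPM in untreated, 46.3 and 13.4 CPM in VD3 and 25.7 and 4.47 CPM in Ndrg2-KO cells. Between VD3 and untreated immature cells its log2 ratio was thus 0.05, but -1.07 at the higher resolution. Id2 was at 1148 and 799 CPM in untreated, 1038 and 285 CPM in VD3 and 1022 and 480 CPM in Ndrg2-KO cells. For Id2 it was the immature cells that differed between cultures, whereas the mature cells were close.

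Spi1 and Klf4 were on the other side. Spi1 was at 199 CPM in mature and 458 CPM in immature untreated cells, at 183 and 403 CPM in VD3 cells and at 184 and 316 CPM in Ndrg2-KO cells, with log2 ratios of -1.20, -1.14 and -0.78. Klf4 was at 12.2 and 94.5 CPM in untreated, 11.2 and 36.5 CPM in VD3 and 10.1 and 49.0 CPM in Ndrg2-KO cells, with log2 ratios of -2.95, -1.70 and -2.27. Mature cells of the 3 cultures had nearly 1 level of Klf4, while immature cells ranged widely. Irf4 was the gene without a common direction. It was at 65.6 CPM in mature and 70.1 CPM in immature untreated cells and at 62.1 and 62.5 CPM in VD3 cells, but at 129 and 46.3 CPM in Ndrg2-KO cells, where the log2 ratio was 1.47 (1.41 to 1.54).

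**Figure D2:**
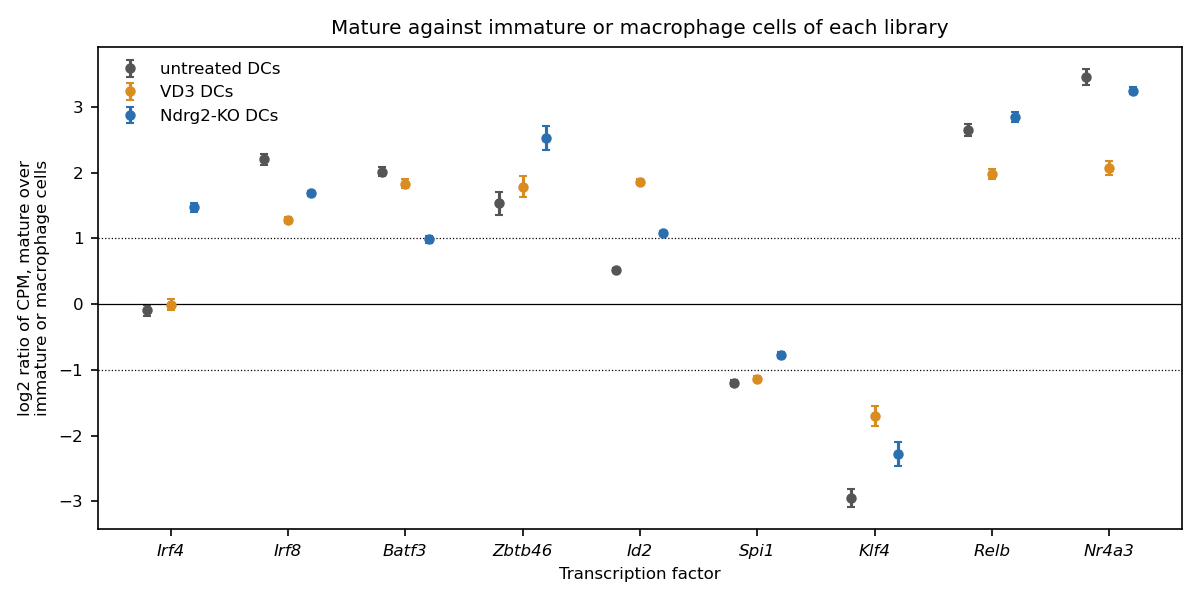
Log2 ratio of CPM between mature and immature or macrophage cells within each DC library for the 9 transcription factors, with exact 95% intervals. Dotted lines mark 2-fold. Spi1 and Klf4 are below 0 in the 3 cultures, and Irf4 is above the upper line only in Ndrg2-KO DCs, at 1.47.

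Within mature DCs, VD3 was accompanied by more Irf8 and less Nr4a3. Irf8 was the 1 member of 9 at least 2-fold apart between VD3 and untreated cells, against 5.70% of genes, with a log2 ratio of 1.03 (0.99 to 1.06), and it was under the limit with cells under 5% mitochondrial UMIs. Nr4a3 had a ratio of -0.85 (-0.89 to -0.80). The other 7 lay between -0.19 (Batf3) and 0.30 (Zbtb46). Klf4, whose library level was lowest in VD3 DCs, had -0.13 (-0.30 to 0.05) among mature cells. In immature or macrophage cells 3 of 9 were at least 2-fold apart, against 11.3% of genes. Irf8 had a log2 ratio of 1.96 (1.87 to 2.04), which was 1.24 to 1.63 under the 3 alternatives, Id2 of -1.49 (-1.52 to -1.45) and Klf4 of -1.37 (-1.48 to -1.26). Under the same alternatives Id2 ran from -2.81 to -1.43 and Klf4 from -2.90 to -1.22. Zbtb46 had 0.05, but -1.07 at the higher resolution, which is past the limit. It had -0.93 with cells under 5% mitochondrial UMIs and -0.60 without the cells of highest doublet score. In these immature cells the mature DC markers summed to 690 CPM in untreated and 2441 CPM in VD3 DCs, the Csf1r list to 20836 and 8085 CPM and the neutrophil markers to 482 and 1780 CPM, and their part in the ratios was not tested. The Klf4 difference of the libraries was therefore present in the immature cells, while the interval in mature cells included 0. Cycling cells, named from Mki67 and Top2a and numbering 2343 in untreated and 2551 in VD3 DCs, gave 3 of 9 past the limit, against 8.75% of genes. They were Id2 with -1.60, Klf4 with -1.40 and Nr4a3 with -1.19, and Irf8 had 0.69 (0.63 to 0.76). Neutrophil markers summed to 8460 CPM in untreated, 14721 CPM in VD3 and 1009 CPM in Ndrg2-KO cycling cells and progenitor markers to 480, 308 and 17.3 CPM. The Csf1r list summed to 11833, 6235 and 32498 CPM and the macrophage markers to 768, 1858 and 1103 CPM in the same order. The part of these markers in the cycling ratios was not tested. The Nr4a3 value was -0.01 without the cells of highest doublet score and -0.71 at the higher resolution. With cells under 5% mitochondrial UMIs, Nr4a3 had -2.22, Klf4 -2.73 and Irf8 -0.08.

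Within mature cells the Ndrg2 knockout was accompanied by more Irf4, Nr4a3 and Irf8 and less Batf3, and none of the 9 reached 2-fold against the untreated cells, where 10.8% of genes did. Irf4 came closest with a log2 ratio of 0.97 (0.90 to 1.05). Batf3 had -0.95 (-1.01 to -0.90), Nr4a3 0.76 (0.72 to 0.80) and Irf8 0.74 (0.70 to 0.78). Zbtb46 had -0.55 (-0.68 to -0.41) and Relb -0.40 (-0.45 to -0.35), both smaller than between the whole libraries. The median of all genes was 0.20. Against VD3, mature Ndrg2-KO cells gave 2 of 9 past the limit, beside 11.0% of genes, namely Nr4a3 with 1.61 (1.57 to 1.66) and Irf4 with 1.05 (0.98 to 1.12).

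In immature or macrophage cells the Ndrg2-KO library differed from the untreated one by at least 2-fold in 2 of 9 members, against 12.5% of genes. Zbtb46 had a log2 ratio of -1.54 (-1.76 to -1.32) on 369 and 329 UMIs, and -2.25 to -1.33 under the 3 alternatives, and Irf8 had 1.26 (1.18 to 1.35), but 0.89 with cells under 5% mitochondrial UMIs. Nr4a3 had 0.97 (0.84 to 1.10), but -0.49 under the same mitochondrial limit and 2.11 at the higher clustering resolution. That resolution gave 1577 immature Ndrg2-KO cells in place of 4014 and put 1964 Ndrg2-KO cells in an unnamed cluster. Between Ndrg2-KO and untreated immature cells the mature DC markers summed to 1538 and 690 CPM, the Csf1r list to 35568 and 20836 CPM and the neutrophil markers to 71.3 and 482 CPM, and their part was not tested. Against VD3 immature cells, 2 of 9 were past the limit, beside 17.6% of genes. They were Zbtb46 with -1.59 (-1.80 to -1.38) and Relb with -1.18 (-1.27 to -1.08), and at the higher resolution these were -0.26 and -0.14. Relb was also under the limit without the cells of highest doublet score, at -0.77. Id2 had 0.75, but 1.05 to 2.23 under the 3 alternatives, past the limit in each. Nr4a3 went from 0.44 to 3.01 at the higher resolution, and Klf4 from 0.42 to 2.12 with cells under 5% mitochondrial UMIs. Cycling cells gave 2 of 9 against untreated DCs, beside 13.7% of genes, with Zbtb46 at -1.37 (-1.68 to -1.08) and Relb at -1.23 (-1.36 to -1.10), which was under the limit without the cells of highest doublet score and with cells under 5% mitochondrial UMIs. Cycling Ndrg2-KO and VD3 cells gave 2 of 9, beside 15.9% of genes, with Id2 at 1.15 and Relb at -1.13. With cells under 5% mitochondrial UMIs Relb had -0.59, and Klf4 (2.24), Nr4a3 (2.31) and Zbtb46 (-1.18) were past the limit. Zbtb46 was thus lower in Ndrg2-KO than in untreated cells in mature, immature and cycling cells alike, from 25.7, 4.47 and 3.65 CPM against 37.6, 13.0 and 9.45 CPM. When the Ndrg2-KO states were weighted by the shares they had in the untreated library, none of the 9 was 2-fold apart between the libraries.

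**Figure D3:**
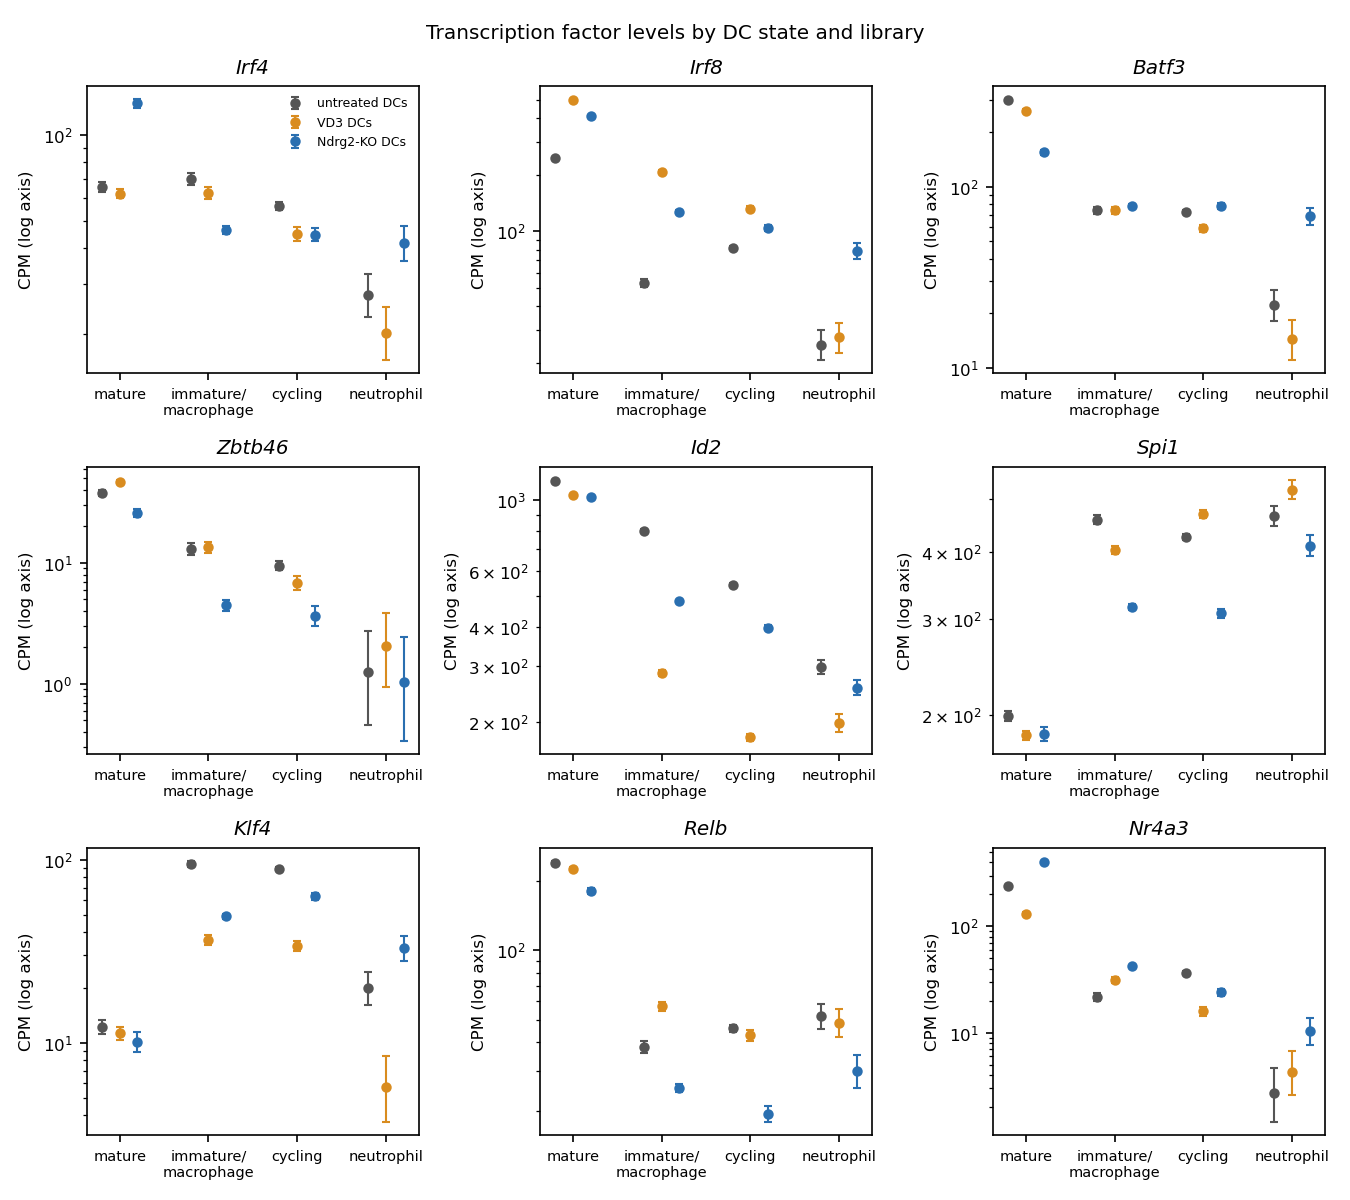
CPM of the 9 transcription factors by cell state of the DC cultures and by library (log axes), with exact 95% Poisson intervals. Nr4a3 in mature DCs is lowest in VD3 DCs at 132 CPM and highest in Ndrg2-KO DCs at 404 CPM, and Klf4 in mature DCs is between 10.1 and 12.2 CPM in the 3 libraries.

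At a higher clustering resolution most mature DCs of each culture fell into 1 cluster with more and 1 with less Il12b, which encodes a subunit of interleukin 12. Another 130 mature Ndrg2-KO cells lay in the Il12b-high cluster of the untreated DCs, with Il12b at 135 CPM, Nr4a3 at 82.7 CPM, Irf4 at 58.9 CPM and Batf3 at 327 CPM, and are not part of the Ndrg2-KO values that follow. This split was looked at after the values had been seen, and Nr4a3 was among the leading genes of the clusters, so its values are a description of the split. Nr4a3 was at 282 CPM in the Il12b-low and 118 CPM in the Il12b-high cluster of untreated DCs, at 189 and 65.3 CPM in VD3 DCs and at 477 and 251 CPM in Ndrg2-KO DCs. The Il12b-low clusters were led by Pou4f1 and Aldh1a2, a retinoic acid synthesis enzyme, in untreated and VD3 DCs and by Clu in Ndrg2-KO DCs. Aldh1a2 and Clu were higher in the Il12b-low cluster of each culture. Aldh1a2 was at 229 and 33.0 CPM in untreated, 82.3 and 12.8 CPM in VD3 and 421 and 103 CPM in Ndrg2-KO DCs. Clu was at 69.1 and 36.9, 53.7 and 17.5 and 335 and 84.6 CPM. Irf4 was on the same side as Nr4a3, at 69.2 and 54.6 CPM in untreated, 84.0 and 36.8 CPM in VD3 and 143 and 98.8 CPM in Ndrg2-KO DCs.

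Batf3 and Relb went with Il12b in the 3 cultures. Batf3 was at 272 CPM in Il12b-low and 367 CPM in Il12b-high cells of untreated DCs, at 245 and 282 CPM in VD3 DCs and at 120 and 222 CPM in Ndrg2-KO DCs. Relb was at 200 and 332 CPM, at 207 and 247 CPM and at 142 and 274 CPM. Both gaps were widest on the log scale in Ndrg2-KO DCs, with log2 ratios of -0.89 and -0.95. Zbtb46 was at 36.2 and 41.1 CPM in untreated and at 47.5 and 44.6 CPM in VD3 DCs, but at 17.4 and 43.3 CPM in Ndrg2-KO DCs. The Zbtb46 level of Il12b-high Ndrg2-KO cells was therefore close to that of the other cultures, and the lower mature level lay in the Il12b-low cells. Irf8 was also lower in the Il12b-low cells of Ndrg2-KO DCs, with 359 and 551 CPM beside 230 and 264 CPM in untreated and 512 and 478 CPM in VD3 DCs. Median depth differed too, at 13603 and 8559 UMIs per cell in the Il12b-low and Il12b-high clusters of Ndrg2-KO DCs. It was 16839 and 11560 UMIs in untreated and 16078 and 12118 UMIs in VD3 DCs, and the part of depth was not tested.

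**Figure D4:**
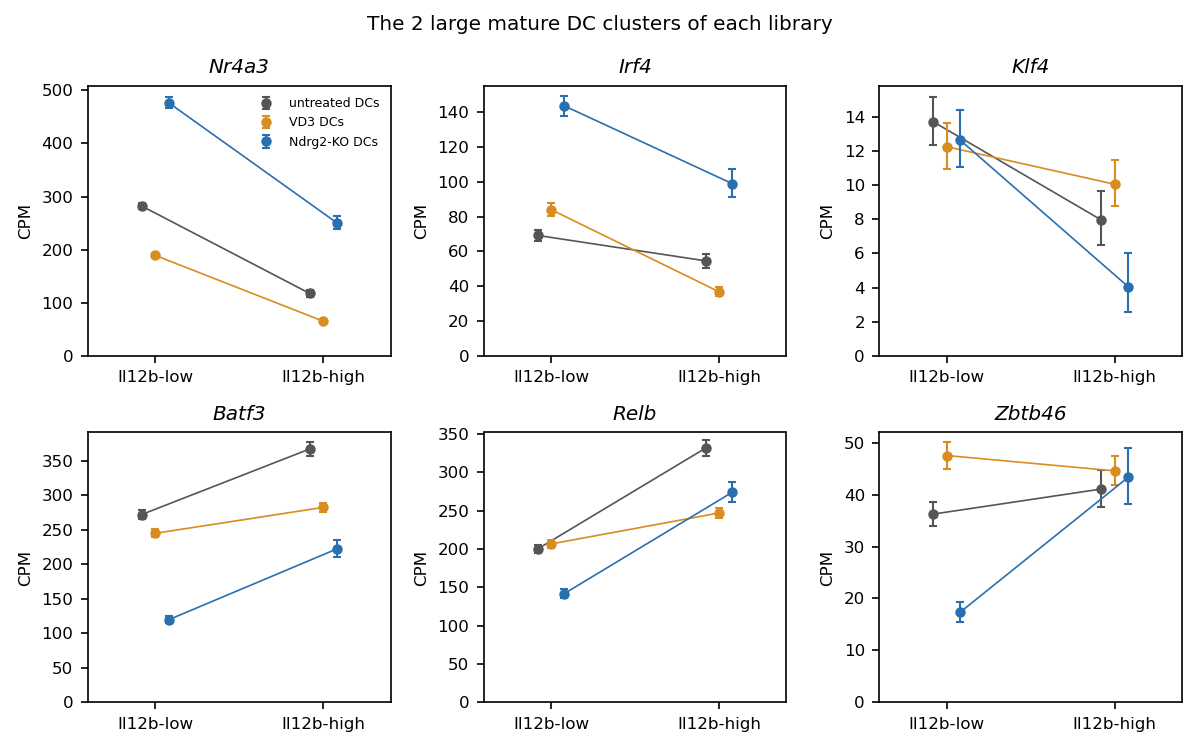
CPM of Nr4a3, Irf4, Klf4, Batf3, Relb and Zbtb46 in the Il12b-low and Il12b-high cluster of mature DCs of each library, with exact 95% Poisson intervals. The axes are linear. Zbtb46 in Ndrg2-KO DCs is at 17.4 CPM in the Il12b-low and 43.3 CPM in the Il12b-high cluster.

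To set cells of unequal depth side by side, 2000 UMIs were drawn from each before the cells with a UMI were counted. Nr4a3 was then detected in 31.2% (29.5 to 33.0) of 2635 mature untreated cells, 20.2% (18.9 to 21.7) of 3305 mature VD3 cells and 45.7% (43.5 to 47.9) of 1991 mature Ndrg2-KO cells. In the neutrophils of the same cultures, where it was lowest, the shares were 0.451%, 0.856% and 1.42%. Without drawing down, mature cells gave 76.6%, 59.3% and 83.4% at median depths of 14511, 13682 and 11124 UMIs, and neutrophils gave 1.39%, 1.52% and 4.99% at 2973, 2856 and 7488 UMIs. The order of the cultures by Nr4a3 in mature cells was the same by CPM and by share. Zbtb46 was detected in 7.74%, 9.38% and 5.37% of mature cells drawn to 2000 UMIs, and in 0.301%, 0.244% and 0.405% of neutrophils. In immature cells the share was 2.83% in untreated, 1.32% in VD3 and 0.775% in Ndrg2-KO DCs. The last share had an interval of 0.527 to 1.10%, which met that of Ndrg2-KO neutrophils (0.0491 to 1.45%). By CPM the same cells were apart, at 4.47 (4.02 to 4.95) in immature cells and 1.04 (0.338 to 2.43) in neutrophils. Undrawn shares of Zbtb46 were 20.3%, 18.0% and 8.45% in immature cells and 0.644%, 0.626% and 0.960% in neutrophils.

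Cells of the other kinds in the cultures had their own profiles. A cluster named cDC1 from Itgae, Clec9a and Gcsam held 77 untreated, 146 VD3 and 1 Ndrg2-KO cells. Irf8 was at 953 CPM (896 to 1013) in its untreated and at 300 CPM (276 to 325) in its VD3 cells. Batf3 was at 61.3 and 109 CPM in these cells, below the mature DCs of both cultures, and Irf4 at 14.6 and 67.3 CPM. The 7 cDC1 markers summed to 797 CPM in the untreated and 467 CPM in the VD3 cells, and the 8 neutrophil markers to 116 and 811 CPM. Macrophage markers summed to 57.7 and 786 CPM, mature DC markers to 474 and 1083 CPM and the Csf1r list to 723 and 325 CPM. The VD3 part of the cluster was therefore less clear. The part of these markers in the Irf8 gap was not tested.

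Neutrophils of the cultures had Spi1 at 410 to 520 CPM and Zbtb46 at 1.04 to 2.05 CPM. Irf8, Batf3 and Irf4 were at 14.3 to 27.5 CPM in untreated and VD3 neutrophils and at 78.6, 68.6 and 41.7 CPM in Ndrg2-KO neutrophils. They numbered 932 in untreated, 1118 in VD3 and 521 in Ndrg2-KO DCs. Between VD3 and untreated neutrophils, 0 of the 5 members with enough UMIs were 2-fold apart, beside 2.59% of genes. Between Ndrg2-KO and untreated neutrophils, 2 of 7 were, beside 7.72%, with Irf8 at a log2 ratio of 1.65 and Batf3 at 1.63. Against VD3 neutrophils, 3 of 6 were, beside 11.8%, namely Batf3 with 2.26, Irf8 with 1.52 and Irf4 with 1.04. With cells under 5% mitochondrial UMIs Relb passed the limit too, at -1.20 against untreated and -1.04 against VD3 neutrophils, and Klf4 at 1.13 against untreated ones. The 8 neutrophil markers summed to 4218 CPM in the Ndrg2-KO cells against 40035 and 52470 CPM in untreated and VD3 cells, and these Ndrg2-KO cells formed a cluster of their own with Chil3 among its leading genes. Macrophage markers summed to 2237 CPM in the Ndrg2-KO cells against 622 and 189 CPM in untreated and VD3 cells. Mature DC markers summed to 1208 against 440 and 459 CPM and the Csf1r list to 21838 against 18141 and 14166 CPM. The neutrophil name was therefore weaker there, and the part of these markers in the ratios was not tested.

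Relatives of the 9 factors were read from a second list. Of 48 genes in the IRF, BATF, NF-kB, NR4A, ID and E protein, KLF and ETS families and other DC or macrophage regulators, 44 had enough UMIs. In VD3 against untreated DCs 0 were at least 2-fold higher and 7 at least 2-fold lower, with a median of -0.04. The lower ones included Bhlhe41 (-2.24), the lipid sensor Nr1h3 (-2.78), Cebpa (-1.61) and Tfec (-1.50). In Ndrg2-KO against untreated DCs 4 were higher and 5 lower, with a median of -0.01. The higher ones included Irf7 (2.13), the macrophage factor Maf (2.10) and Bhlhe41 (1.81). The lower ones were Id3 (-6.13), Id1 (-4.75), Spib (-1.83), Rel (-1.07) and Nfkb2 (-1.04). Id1 was at 96.6 CPM in untreated, 41.7 in VD3 and 3.58 in Ndrg2-KO DCs, and Id3 at 81.5, 33.6 and 1.16 CPM, so that the 2 ID genes next to Id2 were spread far wider than Id2. In Ndrg2-KO against VD3 DCs 10 were higher and 6 lower, with a median of 0.17. For both directions together, 9.08%, 15.3% and 18.4% of all genes were past the limit in these 3 pairs. Between mature and immature cells, 8, 6 and 8 relatives were at least 2-fold higher and 14, 14 and 16 at least 2-fold lower of 40, 40 and 41 in untreated, VD3 and Ndrg2-KO DCs. Of all genes 12.1%, 8.03% and 9.72% were higher and 26.9%, 19.3% and 16.9% lower.

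Across 13 groups of cells, the states of each culture with enough cells, each factor was compared with 4260 genes by Pearson's r of log CPM. Relb was most like Nfkb2, the partner it forms a dimer with (r = 0.987), and Nfkbib (0.984). Nr4a3 was most like Vhl (0.983), Batf3 like Spire1 (0.977), Spi1 like Slc35c2 (0.981) and Zbtb46 like Lrrk1 (0.973). Irf8 was most like Itga6 (0.959), Klf4 like Rab3il1 (0.958), Irf4 like Adra2a (0.923) and Id2 like Asap1 (0.920). Among the members, Irf8 and Batf3 had the highest r, 0.87, and Spi1 and Nr4a3 the lowest, -0.92. The groups share 3 libraries and their clustering, so these values only describe how levels ran together.

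In the wounds Nr4a3, Zbtb46 and Batf3 were highest in 2 small groups of cells. Wound cells were clustered first, and 3617 myeloid cells were then clustered again. Mature DCs numbered 14 cells in the control DC wound, 19 in the Ndrg2-KO DC wound and 30 in the blank hydrogel wound. Pooled over the 3 wounds, Nr4a3 was at 1094 CPM (1022 to 1170) in mature DCs and 578 CPM (545 to 611) in the 153 cells named cDC2, whose leading genes held Klrd1 and Cd7 beside H2-DMb2 and Cd209a. It was at 144 CPM in monocytes, 143 CPM in C1q macrophages, 103 CPM in resident macrophages and 69.3 CPM in Arg1 macrophages. The 2 DC groups thus stood above every macrophage group, with intervals that did not meet. Zbtb46 was at 75.0 CPM (57.0 to 97.0) in mature DCs, 25.8 CPM (19.3 to 33.8) in cDC2, 7.43 CPM in resident macrophages and below 1 CPM in monocytes, C1q macrophages and Arg1 macrophages. Batf3 was at 119 CPM (95.9 to 146) in mature DCs and 30.2 CPM (23.1 to 38.7) in cDC2, and at most 7.80 CPM in the 4 other groups. Relb was at 440 CPM in mature DCs, 90.6 CPM in cDC2 and 34.6 to 63.5 CPM in the 4 others, and at 117 CPM (109 to 126) in the smaller neutrophil cluster. Irf8 was at 703 CPM (646 to 765) in mature DCs, 204 CPM in cDC2 and 116 to 169 CPM in the 4 others, and was highest in NK cells at 879 CPM (812 to 950). No wound cluster was named cDC1, and the 6 cDC1 markers summed to 112 to 204 CPM in cDC2.

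The macrophage side was held by Klf4, and Irf4 crossed the line between DCs and macrophages. Klf4 was at 1229 CPM in resident, 1149 CPM in C1q and 727 CPM in Arg1 macrophages, 456 CPM in monocytes, 341 CPM in cDC2 and 85.3 CPM in mature DCs. Fibroblasts reached 1210 CPM, so Klf4 was not a myeloid marker in this tissue. Egr1, an immediate early gene looked at after the values had been seen, was at 1607 CPM in resident and 1206 CPM in C1q macrophages. In Arg1 macrophages, monocytes, cDC2, mature DCs and fibroblasts Egr1 was at 198, 124, 85.2, 22.0 and 1404 CPM. Fos was at 1070, 1322, 487, 609, 446, 132 and 1236 CPM in the same order of groups. The part of these genes in the Klf4 levels was not tested. Irf4 was at 60.1 CPM (54.1 to 66.6) in resident macrophages and 54.5 CPM (44.9 to 65.6) in cDC2, which did not differ beyond counting error. It was at 31.7 CPM in C1q macrophages, 22.0 CPM (12.8 to 35.2) in mature DCs, 18.2 CPM in monocytes and 8.87 CPM in Arg1 macrophages. Id2 was at 1412 CPM in mature DCs and 286 to 562 CPM in the 5 other groups. Spi1 was the most even, from 288 to 362 CPM over the 6 groups, against 7.79 CPM in fibroblasts. The same mature DC name in culture and wound went with a different Irf4 level, 62.1 to 129 CPM in culture and 22.0 CPM in the wound, but culture and wound were processed with different versions of Cell Ranger and were not tested against each other.

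**Figure D5:**
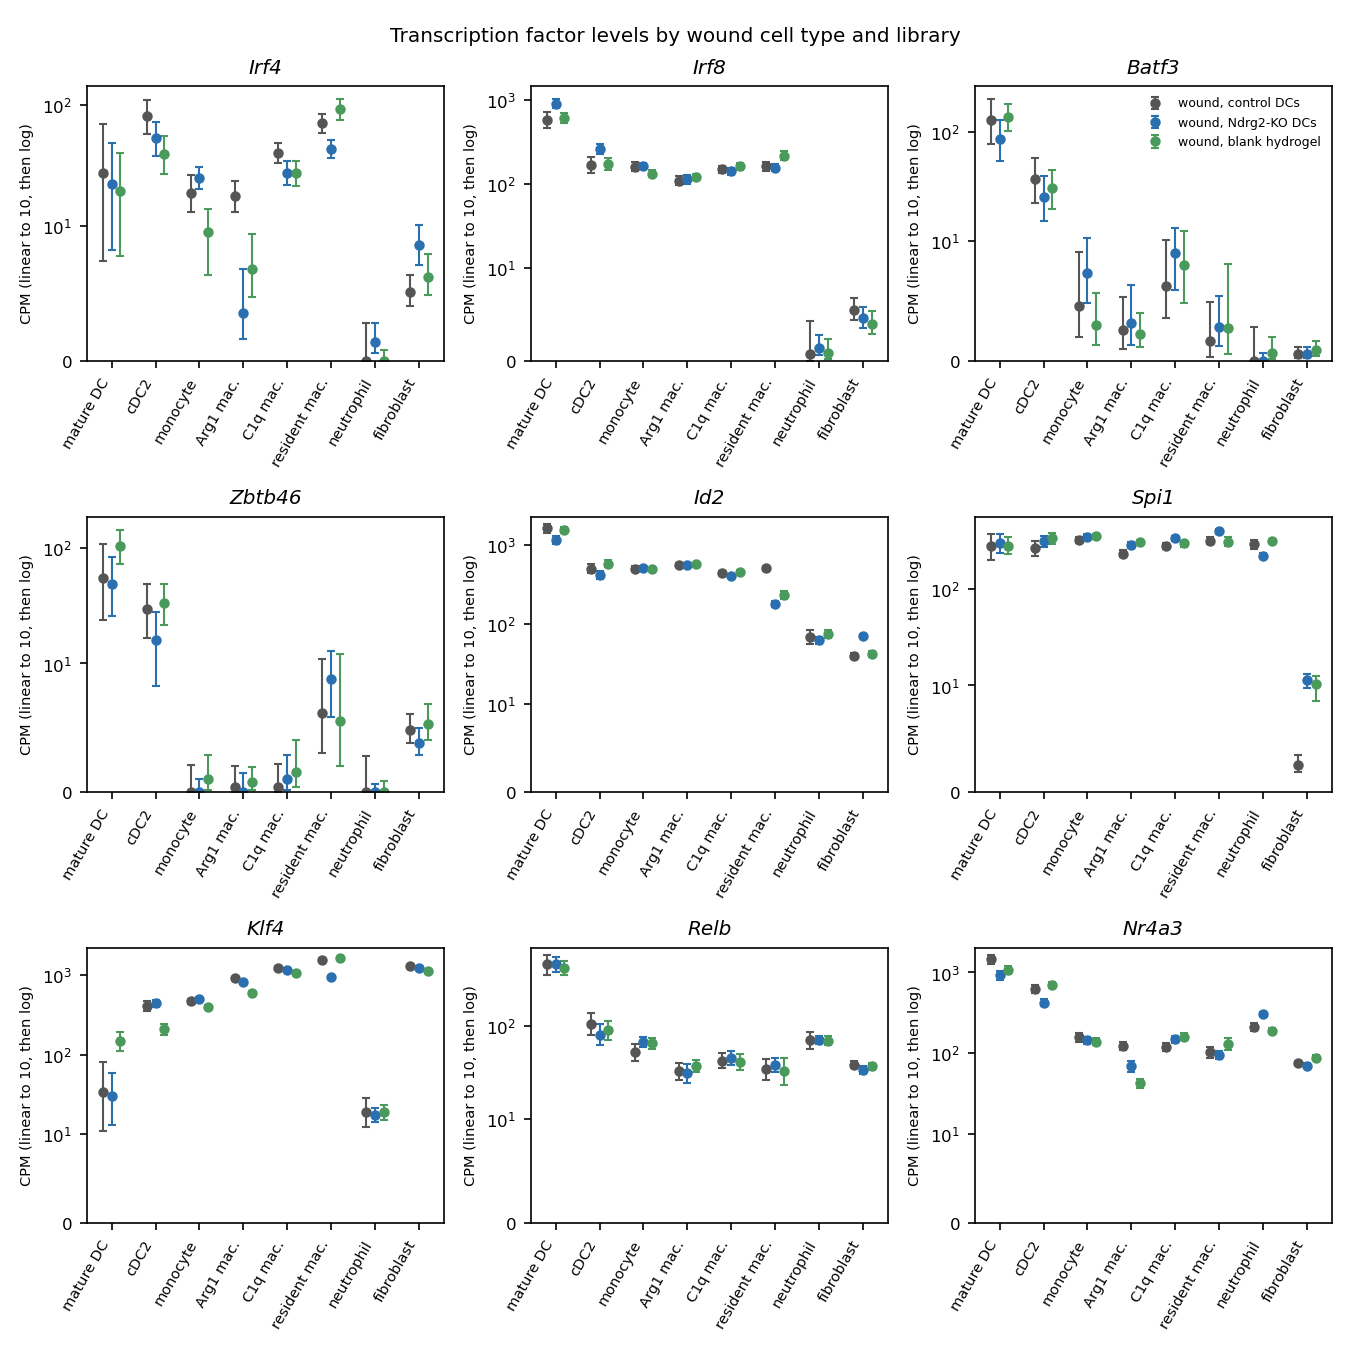
CPM of the 9 transcription factors by wound cell type and library, with exact 95% Poisson intervals (axes linear to 10 CPM and logarithmic above). Nr4a3 and Zbtb46 are highest in mature DCs and cDC2, Klf4 is highest in macrophages and fibroblasts, and Nr4a3 in Arg1 macrophages is at 122 CPM with control DCs and 42.2 CPM with blank hydrogels.

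Wound neutrophils carried Nr4a3, of which culture neutrophils had little. In the larger wound neutrophil cluster it was at 211 CPM in the control DC wound, 308 CPM in the Ndrg2-KO DC wound and 190 CPM in the blank hydrogel wound, and in culture neutrophils at 2.73, 4.32 and 10.4 CPM. Nr4a1, its relative, was at 105 CPM in that wound cluster and at 2.73, 5.01 and 0.833 CPM in untreated, VD3 and Ndrg2-KO culture neutrophils. Fos, an immediate early gene, was at 240 and 121 CPM in the larger and smaller wound neutrophil clusters and at 147, 226 and 18.3 CPM in culture neutrophils, so these ranges overlapped. Egr1 was at 1082 and 1066 CPM in the wound clusters and at 222, 321 and 34.2 CPM in culture neutrophils, and Jun at 609.5 and 646 CPM and at 158, 194 and 39.4 CPM, without overlap. Immediate early genes were added after the values had been seen, and their part in the Nr4a3 levels was not tested.

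Between the wound libraries, C1q macrophages had no member past 2-fold at the resolution reported, while Arg1 macrophages had up to 2 of 7. Only types with at least 100 cells in both libraries and genes with at least 50 UMIs together were compared, which left Zbtb46 and Batf3 out of the 4 types compared, and cDC2 and mature DCs out by their number of cells. In monocytes, 0 of 7 members were 2-fold apart between wounds with Ndrg2-KO and control DCs, beside 3.15% of genes, and 0 of 7 between blank hydrogels and control DCs, beside 2.76%. At the higher resolution Irf4 was past the limit in both pairs, going from 0.40 to 1.28 with Ndrg2-KO DCs and from -0.98 to -1.07 with blank hydrogels, where the median-ratio scaling gave -1.02. Irf4 was the 1 of 7 past the limit between Ndrg2-KO DCs and blank hydrogels, beside 3.47% of genes, at 25.0 and 9.59 CPM on 92 and 29 UMIs (log2 ratio 1.38, 0.77 to 2.04), and the ratio was 2.35 at the higher resolution. In these monocytes the C1q macrophage markers summed to 15089 CPM with Ndrg2-KO DCs and 7062 CPM with blank hydrogels and the monocyte markers to 1598 and 3033 CPM, and their part was not tested. In C1q macrophages, 0 of 7 were past the limit in each of the 3 pairs, beside 3.66% for Ndrg2-KO against control DCs, 1.84% for blank hydrogels against control DCs and 2.25% for Ndrg2-KO DCs against blank hydrogels. At the higher resolution Irf4 between blank hydrogels and control DCs went from -0.55 to -1.08.

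In Arg1 macrophages Irf4 and Nr4a3 differed between wounds. Irf4 was at 17.7 CPM in the control DC wound, 3.61 CPM in the Ndrg2-KO DC wound and 6.82 CPM in the blank hydrogel wound, on 48, 9 and 36 UMIs. Against control DCs it was the 1 of 7 members past the limit for Ndrg2-KO DCs, with a log2 ratio of -2.30 (-3.51 to -1.25), beside 2.42% of genes, and Nr4a3 went from -0.83 to -1.05 at the higher resolution. For blank hydrogels 2 of 7 were past it, beside 2.33% of genes, Irf4 with -1.38 (-2.04 to -0.72) and Nr4a3 with -1.53 (-1.79 to -1.29). Nr4a3 was at 122, 68.9 and 42.2 CPM, and Klf4 at 906, 809 and 595 CPM. Both factors were highest with control DCs and lowest with blank hydrogels. In the same cells Fos was at 564, 604 and 393 CPM and Egr1 at 259, 282 and 127 CPM. Monocyte markers summed to 768, 845 and 273 CPM, neutrophil markers to 218, 665 and 646 CPM and erythroid markers to 613, 1048 and 2943 CPM. The part of these genes and markers was not tested. Between Ndrg2-KO DCs and blank hydrogels, 0 of 6 were past the limit, beside 1.97% of genes. The Arg1 list was also met by a cluster led by Stfa3 and Nos2, of which 431 of 524 cells came from the wound with Ndrg2-KO DCs, and it was kept apart.

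Resident macrophages allowed 1 comparison, Ndrg2-KO against control DCs, in which 1 of 7 members was past the limit, beside 6.24% of genes. Id2 was at 179 CPM against 505 CPM, a log2 ratio of -1.49 (-1.65 to -1.34). In the 70 resident macrophages of the wound with blank hydrogels it was at 233 CPM. Klf4 was at 926 CPM with Ndrg2-KO DCs, 1541 CPM with control DCs and 1598 CPM with blank hydrogels. The 5 erythroid markers summed to 2102 CPM in these cells with Ndrg2-KO DCs and to 59.1 and 66.9 CPM with control DCs and blank hydrogels, and the 5 cDC2 markers to 1082, 2248 and 1940 CPM. Their part in the Id2 and Klf4 levels was not tested. Among the mature DCs of the wounds, too few for a comparison, Nr4a3 was at 1455 CPM with control DCs, 922 CPM with Ndrg2-KO DCs and 1075 CPM with blank hydrogels, and Irf8 at 574, 899 and 611 CPM. Erythroid markers summed to 54.6, 21194 and 55.5 CPM in these cells and neutrophil markers to 68.3, 11671 and 1908 CPM, and their part was not tested.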

How the data were processed

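Single-cell RNA was measured in 3 DC cultures and 3 wounds, 1 library each. The authors made UMI counts per gene and barcode with Cell Ranger (3.1.0 for the DC and 6.0.0 for the wound files, per the file headers) and deposited them without normalization. The processing notes name build mm9 and the study's methods mm10. Positions and promoters here are those of GRCm38, and counts were not changed. Kept cells had 300 or more genes, fewer than 100000 UMIs and a mitochondrial share below 10%. Counts were scaled to 10000 per cell, and 2000 variable genes without the 9 factors, 15 principal components and 15 neighbours gave Louvain clusters at resolution 0.5, or 1.0 for the finer view (Seurat 5.3.0, R 4.3.3). A cluster took a name when at least 3 markers of the list were at 50 CPM or more and 2-fold above the other cells. Counts were summed per library and state, and levels and ratios were computed in Python 3.11.15 (scipy 1.17.1, pandas 2.3.3, numpy 2.4.6), with exact 95% Poisson, Clopper-Pearson and conditional binomial intervals. Ratios needed 200 UMIs in both sums together for DCs or 50 for wounds, and 100 cells a side for wounds. With 1 library per condition, nothing was tested, and a gene was counted as different when it was at least 2-fold apart. The ratio intervals, the 2-fold call and the drawing down of cells were checked on simulated counts without spread between cultures. Clustering and the naming of clusters were not simulated. Doublets were scored with Scrublet (scanpy 1.11.5), whose automatic limit marked 0 to 0.873% of cells and had not worked, so none was removed and the highest 6% of scores were left out as an alternative. For shares, cells were drawn down to 2000 UMIs in DC libraries, which left out 472, 1149 and 134 shallower cells of untreated, VD3 and Ndrg2-KO DCs. Likeness between genes was taken on log CPM with 10 added, over genes with at least 50 CPM in 1 group. The genes named in the text are the 9 factors, relatives at least 2-fold apart between DC libraries, and genes most alike to each factor, beside markers, leading genes of clusters and genes said to be chosen after their values were seen. The members and lists were chosen with earlier results of these data known. Other settings tried were 300 UMIs in place of 300 genes, all barcodes, totals without mitochondrial and ribosomal protein genes, a median-ratio scaling, means over cells, a limit of 5% mitochondrial UMIs, 30 principal components, each library clustered alone, the factors allowed among the variable genes, the state shares of the untreated library and a 1.5-fold limit.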

Additional observations from a re-analysis of the deposited data

Results flagged for a closer look

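The log2 ratio between 2 DC libraries went one way in mature DCs and the other way in immature or macrophage cells for 4 pairs of gene and comparison, with both counting intervals clear of 0 and the ratios at least 2-fold apart. These differences rest on 1 library per condition and were not tested. For Nr4a3 between VD3 and untreated DCs, the mature ratio minus the immature ratio was -1.38. For Irf4 between Ndrg2-KO and untreated DCs it was 1.57, and between Ndrg2-KO and VD3 DCs it was 1.48. For Batf3 between Ndrg2-KO and untreated DCs it was -1.03. The immature side of the Batf3 turn rested on a small gap, 78.0 CPM in Ndrg2-KO and 73.8 CPM in untreated cells. The Nr4a3 value depended on the clustering of the immature cells, since their ratio between VD3 and untreated DCs was 0.53 in the report and ran from -0.90 to -0.01 under the 3 other settings tried for it.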

How the results depend on the processing

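No paired analysis was possible because each condition was 1 library, and for the same reason no replicate could be left out. Of the counts of members at least 2-fold apart recomputed under other settings, 93 stayed within 1.5 times the value reported and 21 moved. A count has no direction, so it could not show a reversal. Directions of single genes did turn in places. In cycling Ndrg2-KO against untreated cells the Nr4a3 log2 ratio went from -0.60 to 0.86 without the cells of highest doublet score. For VD3 against untreated DCs the count of 2 became 1 with cells under 5% mitochondrial UMIs and 1 with means over cells. For Ndrg2-KO against untreated DCs the count of 2 became 1 with all barcodes, 1 with a median-ratio scaling, 0 with means over cells and 0 with the state shares of the untreated library. For Ndrg2-KO against VD3 DCs the count of 2 became 4 with cells under 5% mitochondrial UMIs, 1 with the state shares, where Zbtb46 (-0.93) and Relb (-0.52) were lost and Nr4a3 (1.42) was the 1, and 5 at a 1.5-fold limit. The limit of 5% mitochondrial UMIs, which kept 1721 of 7969 Ndrg2-KO cells, also turned the count for mature VD3 against untreated DCs from 1 to 0. Under it the immature counts of 2 became 1 for Ndrg2-KO against untreated and 4 against VD3 DCs, the cycling counts of 2 became 1 and 4, and the neutrophil count of 2 against untreated DCs became 4. Leaving out the highest doublet scores made the cycling count for Ndrg2-KO against untreated DCs 1. In the wounds, the finer clustering turned the counts for Ndrg2-KO against control DCs from 0 to 1 in monocytes and from 1 to 2 in Arg1 macrophages, and for blank hydrogels against control DCs from 0 to 1 in monocytes and in C1q macrophages, and the median-ratio scaling gave 1 in monocytes for blank hydrogels. Over 8 other settings the library ratios ran from 0.92 to 1.31 for Irf8 and from -2.36 to -1.28 for Klf4 between VD3 and untreated DCs, and from -1.65 to -0.81 for Zbtb46 and -1.22 to -0.55 for Relb between Ndrg2-KO and untreated DCs. Irf8 between Ndrg2-KO and untreated DCs ran from -0.11 to 0.70, so its direction was not kept. Of the ratios and shares of single genes under other settings, 531 stayed inside the counting interval of the value reported and 467 left it. Depth limited Zbtb46 and Batf3 in monocytes and in Arg1, C1q and resident macrophages, where each had under 50 UMIs in every pair of wound libraries compared.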

Other observations

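Some cells of the cultures matched no marker list and still carried Nr4a3. At the finer clustering, 404 Ndrg2-KO cells led by Nr4a3, Syt7 and Ccl22 had it at 260 CPM, and 221 untreated cells led by Inhba and Cav1 had it at 190 CPM. In the wounds, Spi1 was at 609 CPM in 58 monocytes led by Ace and Treml4, and Irf8 at 879 CPM in 81 NK cells. Id2 was at 759 CPM in the 524 macrophages led by Stfa3 and Nos2.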
